A study of Mus musculus with 6 samples.

Results

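The neurexin network at the synapse was followed through 7 genes: the neurexins Nrxn2 and Nrxn3, the neuroligins Nlgn1 and Nlgn2, the neurexophilin Nxph1, the contactin Cntn2 and its partner Cntnap2. They were taken by name, so that a probe belonged to the set when the array file gave one of these symbols or when the transcript it was designed to maps to one of them. The 7 genes, of 28786 gene names on the array, are covered by 18 of its 41174 probes. Tests were limited to probes that stood clear of the background, in either dye, on 2 or more of the 6 arrays; 13 of the 18 probes passed, with at least 1 for each of the 7 genes, among 18046 genes tested. Each gene is given by its probe of highest mean signal unless another is named. Cntn2 passed this filter only through WT differentiating cells, where it is high, and the brightest Nrxn3 probe only through proliferating replicates 3 and 4.

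Gene expression was measured on 6 Agilent arrays with 2 colours, each holding RNA of Dnmt3a-null (KO) cells in one dye and RNA of wild-type (WT) cells in the other. Dnmt3a is an enzyme that adds methyl groups to DNA. The cells were neural stem cells grown as monolayers from the subventricular zone, the wall of the lateral ventricle, of mice at postnatal day 14 to 21. The groups were KO differentiating cells, WT differentiating cells, KO proliferating cells and WT proliferating cells, with 2 arrays of differentiating and 4 of proliferating cells. Proliferating cells were kept in FGF-2 and EGF, the mitogens, at 10 ng/ml each; differentiating cells were replated with mitogen for 2 days and then left without it for 3 days. The labels call the arrays biological replicates but do not say whether the cultures came from separate animals, so the p-values measure the spread between these cultures. The labels give neither the deleted exons nor whether the deletion was limited to a cell type. All 4 proliferating arrays lay on 1 slide and both differentiating arrays on another, so slide and condition cannot be told apart in levels; the KO over WT ratio is taken within an array.

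Neurexins are presynaptic receptors that bind partners across the synaptic cleft. Neuroligins are their postsynaptic ligands, with neuroligin 1 found mostly at excitatory and neuroligin 2 mostly at inhibitory synapses, and neurexophilin 1 is a secreted glycoprotein that binds alpha-neurexins. Contactin 2 (TAG-1) is a lipid-anchored adhesion molecule of growing axons, and Cntnap2 (Caspr2), a membrane protein related to the neurexins, binds it and holds potassium channels beside the nodes of myelinated axons.

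The promoters of the 3 genes that were lower in KO differentiating cells are shown because the enzyme missing from the KO cells acts on cytosines followed by guanine. The sequences are the 250 bases upstream of each RefSeq start on build GRCm38.p6, read 5′ to 3′ on the gene's strand, with each CG dinucleotide in capitals. DNA methylation was not measured here. Cntnap2 has 2 RefSeq starts.
Nxph1, chr6:8949769-8950018, plus strand: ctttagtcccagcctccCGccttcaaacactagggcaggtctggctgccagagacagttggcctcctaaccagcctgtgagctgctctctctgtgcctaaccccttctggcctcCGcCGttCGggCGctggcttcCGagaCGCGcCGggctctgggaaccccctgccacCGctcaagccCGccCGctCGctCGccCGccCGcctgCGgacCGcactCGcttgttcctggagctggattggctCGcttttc
Cntn2, chr1:132542941-132543190, minus strand: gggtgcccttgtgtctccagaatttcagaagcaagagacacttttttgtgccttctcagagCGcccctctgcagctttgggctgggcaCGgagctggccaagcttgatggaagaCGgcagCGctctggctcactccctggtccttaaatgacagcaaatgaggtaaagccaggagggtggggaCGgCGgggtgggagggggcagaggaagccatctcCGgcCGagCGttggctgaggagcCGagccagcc
Cntnap2, upstream start, chr6:45059811-45060060, plus strand: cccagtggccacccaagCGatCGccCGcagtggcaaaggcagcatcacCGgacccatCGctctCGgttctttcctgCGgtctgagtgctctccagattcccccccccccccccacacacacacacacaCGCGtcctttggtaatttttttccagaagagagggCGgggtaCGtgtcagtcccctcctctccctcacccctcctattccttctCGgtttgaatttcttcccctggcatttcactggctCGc
Cntnap2, downstream start, chr6:47244146-47244395, plus strand: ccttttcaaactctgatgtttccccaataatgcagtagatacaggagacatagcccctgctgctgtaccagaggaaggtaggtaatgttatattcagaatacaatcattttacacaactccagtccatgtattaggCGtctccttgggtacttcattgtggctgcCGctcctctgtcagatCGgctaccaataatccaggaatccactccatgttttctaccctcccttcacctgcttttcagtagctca

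The Nxph1 window holds 20 CG, the Cntn2 window 10, and the Cntnap2 windows 13 at the upstream and 3 at the downstream start. Among 32851 promoter windows of this length the median was 6 CG, with quartiles of 2 and 16, and 17.9% held as many as the Nxph1 window. The share with as many was 37.8% for Cntn2, 31.5% for the upstream and 71.0% for the downstream Cntnap2 window. Of the windows shown, only that of Nxph1 lies above the upper quartile, and none lies below the lower one. A CG count above that quartile is not particular to Nxph1. Among genes not called between genotypes, the Nlgn2 window holds 18 CG, and 21.7% of all windows hold as many. The Nlgn1 windows hold 9 and 5, and the Nrxn3 windows 2, 5 and 12. CANNTG, the letters bound by basic helix-loop-helix factors and the same on both strands, occurs once each in the Nxph1, Cntn2 and downstream Cntnap2 windows and not in the upstream Cntnap2 window, while 66.2% of all windows hold it. RefSeq windows matched 6 of the 7 genes (all but Nrxn2), with 10 windows in all.

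Between 52.0 and 58.8% of gene spots lay well above background in each of the 12 channels. Dnmt3a itself was lower in KO cells on all 6 arrays, with a log2 ratio of KO over WT of -1.38 ± 0.14 in differentiating (SD, n = 2; limma adjusted p = 0.0153) and -0.96 ± 0.22 in proliferating cells (SD, n = 4; limma adjusted p = 0.0218). On proliferating replicates 3 and 4 the 2 channels differed in sex-linked genes: the log2 ratio of KO over WT was -1.41 and -2.28 for Xist and 2.41 and 2.94 for Ddx3y. On the other 4 arrays it lay between -0.12 and 0.27 for both genes. Nes and Sox2 were above background in all 12 channels, as were 10 of 11 stem and progenitor markers, while 0 of 5 microglial markers were in any. Also in all 12 channels were 6 of 6 oligodendrocyte precursor, 5 of 7 oligodendrocyte, 6 of 7 astrocyte and 6 of 13 neuron markers. Detection therefore goes with the stem cell label but does not single out stem cells. Ratios correlated at 0.704 across genes between the differentiating arrays and at 0.046 to 0.489 between pairs of proliferating arrays.

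In differentiating cells Nxph1, Cntn2 and Cntnap2 were lower in KO cells, while the neurexins and neuroligins did not pass the test. At a limma adjusted p under 0.05, 3 of the 7 genes passed, all lower. Over all genes tested 3.1% passed in either direction and 0.914% as lower. Cntn2, 1 of the 3, entered the test only through WT differentiating cells, where it is high, so its call is not independent of the filter. The median log2 ratio of the 7 genes was -0.36, against -0.0071 over all genes tested. In proliferating cells 0 of the 7 passed with limma, where 0.97% of all genes did. An unadjusted p under 0.05 was found for 2 of the 7, and for 2878 of the 18046 genes tested. There the median log2 ratio was -0.05, against -0.0062 over all genes.

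**Figure D1:**
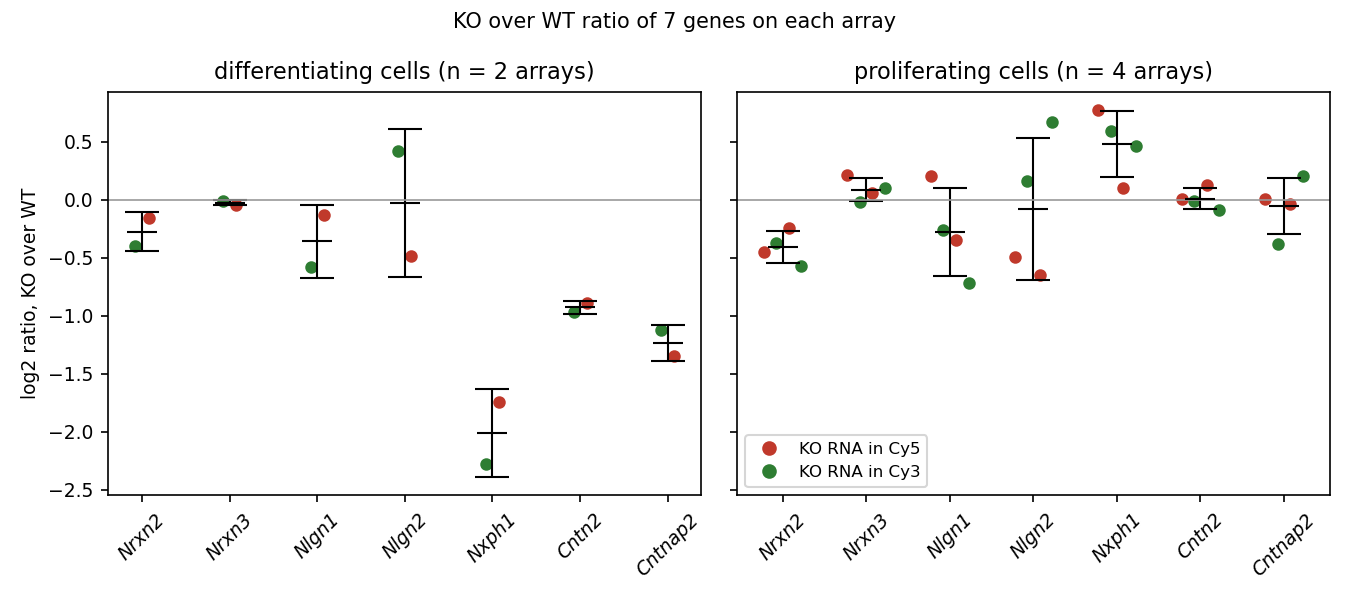
Log2 ratio of KO over WT (vertical axis) for the 7 genes in differentiating (left, 2 arrays) and proliferating cells (right, 4 arrays). Each point is an array, coloured by the dye that held the KO RNA, and bars give the mean and SD; the Nxph1, Cntn2 and Cntnap2 points lie between -2.28 and -0.89 in differentiating cells, and the Nlgn2 points separate by dye.

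Nxph1 was lower in KO than in WT differentiating cells, and its mean ratio had opposite signs in the 2 conditions. Its log2 signal was 8.62 and 8.74 in KO differentiating cells, against 10.89 and 10.48 in WT differentiating cells. In proliferating cells it was 10.35, 10.44, 10.38 and 9.55 in KO cells, against 9.58, 9.85, 10.28 and 9.09 in WT cells. At this probe KO differentiating cells were thus below every other channel, and WT differentiating cells above every other channel. At each other Nxph1 probe KO differentiating cells were again lowest, but the highest channel was a KO proliferating one.

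The log2 ratio of KO over WT for Nxph1 was -2.28 and -1.74 on the differentiating arrays, a mean of -2.01 ± 0.38 (SD, n = 2). This is 4.03-fold lower in KO cells (95% interval of the log2 ratio -2.51 to -1.51, limma adjusted p = 0.0158). On the proliferating arrays the ratio was 0.77, 0.59, 0.10 and 0.46, a mean of 0.48 ± 0.28 (SD, n = 4; 95% interval 0.13 to 0.83), above 0 on 4 of 4 arrays but with a limma adjusted p of 0.197. The KO effect in differentiating minus that in proliferating cells was -2.49 (95% interval -3.10 to -1.88), with a limma adjusted p of 0.0675. Of the 7 genes, 0 passed for this difference of effects with limma, where 0.0499% of all genes passed. An unadjusted p under 0.05 was found for 3 of them (Nxph1, Cntn2 and Cntnap2), and for 2172 of the 18046 genes tested. Cntn2 passed the filter only through WT differentiating cells, so its p-value here is not independent of the filter. With the scanner program's processed signals the difference for Nxph1 had an adjusted p of 0.0382, and over its 16 alternatives the value ranged from 0.0212 to 0.663.

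Nxph1 has 4 probes, all tested and all on chromosome 6 of build mm7. The brightest (chr6:9206851-9206908) and 2 others (chr6:9206641-9206700 and chr6:9205718-9205777) lie within a short stretch. Those 2 had mean log2 ratios of -1.70 ± 0.61 and -1.47 ± 0.53 in differentiating cells (SD, n = 2), with limma adjusted p-values over probes of 0.0210 and 0.0618. In proliferating cells they had means of 0.50 ± 0.33 and 0.64 ± 0.42 (SD, n = 4). The fourth probe (chr6:8971817-8971876), designed to another transcript, was dim: its mean ratio was -0.53 ± 0.14 in differentiating cells (SD, n = 2; limma adjusted p = 0.166). It was not well above background in KO differentiating cells on either array, which bounds it at at least 1.44-fold lower than in WT differentiating cells. For such a bound the dim group takes, on each array, the larger of the probe's signal and the detection floor, the lowest signal among probes clear of the background. All 4 probes thus had negative means in differentiating and positive means in proliferating cells.

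**Figure D2:**
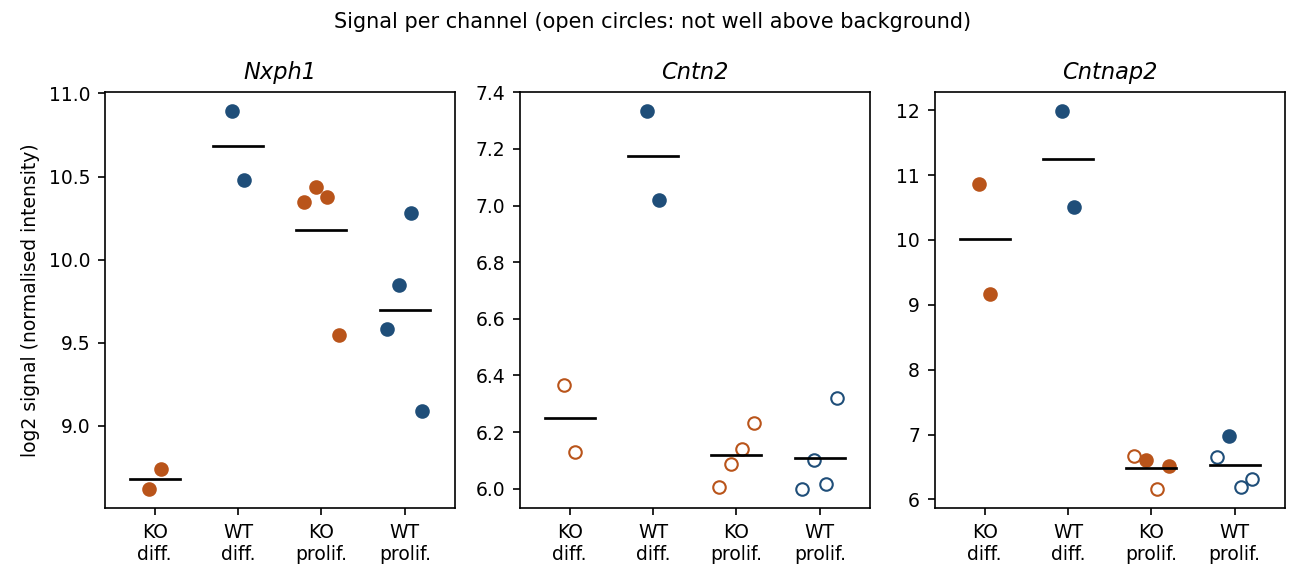
Log2 signal of Nxph1, Cntn2 and Cntnap2 (vertical axes, a scale per gene) in KO differentiating, WT differentiating, KO proliferating and WT proliferating cells. Each point is a channel, open where the probe was not well above background, and lines are group means; Cntn2 is above background in the 2 WT differentiating channels only.

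Cntn2 was detected in WT differentiating cells and in no other group. Its log2 signal was 6.37 and 6.13 in KO differentiating cells, not well above background on either array, against 7.33 and 7.02 in WT differentiating cells. Among proliferating channels it reached at most 6.23 in KO and 6.32 in WT cells, not well above background in any of those 8 channels. The WT differentiating channels thus stood above all others, and the remaining groups overlapped.

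The log2 ratio for Cntn2 was -0.97 and -0.89 in differentiating cells, a mean of -0.93 ± 0.06 (SD, n = 2; limma adjusted p = 0.0156). Its probe passed the filter only through the WT side of this comparison, so the p-value is not independent of the filter. The fitted value was 1.90-fold lower in KO differentiating cells (95% interval of the log2 ratio -1.15 to -0.71). The KO side was not above background, but its signal was not below the detection floor. The floor therefore sets no separate bound here. In proliferating cells the ratio was 0.01, -0.01, 0.13 and -0.09 (mean 0.01 ± 0.09, SD, n = 4; limma adjusted p = 0.970), which compares channels that were all near background. No size is given for the difference between the conditions, since 10 of the 12 channels were not above background. The brightest probe lies at chr1:132413063-132413122 (mm7). The other 2 Cntn2 probes were not above background on any array, with mean ratios of -0.11 and 0.01 in differentiating cells, so that the call rests on 1 probe; averaging all 3 gave a log2 ratio of -0.34 (limma adjusted p = 0.110). The size moved with the background correction, to -2.82 on the scanner program's processed signals.

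Cntnap2 was lower in KO than in WT differentiating cells, and far higher in differentiating than in proliferating cells of both genotypes. Its log2 signal was 10.87 and 9.17 in KO differentiating cells, against 11.99 and 10.51 in WT differentiating cells. The 2 genotypes overlap across these arrays, but within each array the KO channel was the lower. The proliferating channels read 6.67, 6.60, 6.16 and 6.51 in KO cells, above background on 2 of 4 arrays, against 6.66, 6.98, 6.19 and 6.31 in WT cells, above background on 1 of 4.

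The log2 ratio for Cntnap2 was -1.12 and -1.34 in differentiating cells, a mean of -1.23 ± 0.16 (SD, n = 2). This is 2.35-fold lower in KO cells (95% interval -1.63 to -0.84, limma adjusted p = 0.0255). In proliferating cells the ratio was 0.01, -0.38, -0.04 and 0.20, a mean of -0.05 ± 0.24 (SD, n = 4; limma adjusted p = 0.880), at signals near background. The difference between the conditions was -1.18 (95% interval -1.66 to -0.70, limma adjusted p = 0.126). On the processed signals the ratio in differentiating cells was -1.37 and no longer passed (limma adjusted p = 0.156).

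Cntnap2 has 3 probes, of which 1 was dim. The brightest (chr6:47335773-47335832, mm7) was designed to a different RefSeq transcript from the other 2. One of these (chr6:47337737-47337796) lies close by, was above background only on the differentiating arrays, and had ratios of -0.87 and -0.69 there (limma adjusted p = 0.0246). The other (chr6:47095604-47095663) was above background on 1 array and had a mean ratio of -0.03 in differentiating cells.

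**Figure D3:**
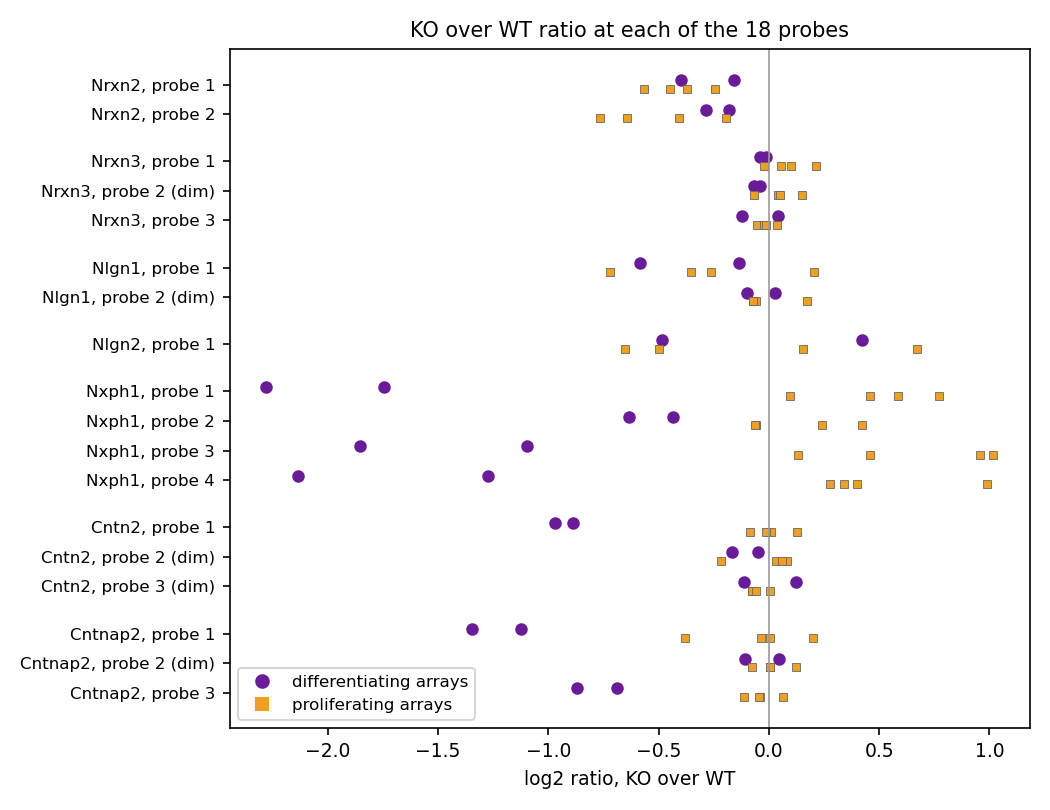
Log2 ratio of KO over WT (horizontal axis) at each of the 18 probes, with the brightest probe of each gene as probe 1; circles are the 2 differentiating and squares the 4 proliferating arrays. Probes marked dim did not pass the filter; the Nxph1 probes lie left of 0 on both differentiating arrays, and the dim probes lie near 0.

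Nrxn2 had a negative ratio on 6 of 6 arrays without passing the test in either condition. Its log2 signal was 10.80 and 10.87 in KO differentiating cells, against 11.19 and 11.03 in WT differentiating cells. The proliferating channels read 10.09, 10.49, 10.56 and 10.34 in KO cells, against 10.54, 10.86, 10.80 and 10.90 in WT cells. The genotypes did not overlap in differentiating cells, and overlapped narrowly in proliferating cells.

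The log2 ratio for Nrxn2 was -0.40 and -0.16 in differentiating cells (mean -0.28 ± 0.17, SD, n = 2; limma adjusted p = 0.260). It was -0.45, -0.37, -0.24 and -0.57 in proliferating cells (mean -0.41 ± 0.14, SD, n = 4; limma adjusted p = 0.0885), with a 95% interval of -0.59 to -0.22. The probes at chr19:6427422-6427481 and chr19:6427387-6427446 (mm7) overlap, so they share sequence and are not independent. The second of them had mean ratios of -0.23 in differentiating and -0.50 in proliferating cells, likewise negative on all 6 arrays.

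Nrxn3 was near background for most channels. Its brightest probe gave log2 signals of 6.21 and 6.41 in KO differentiating cells, against 6.22 and 6.45 in WT differentiating cells, none well above background. The proliferating channels read 6.13, 6.04, 7.03 and 7.44 in KO cells, against 5.92, 6.07, 6.97 and 7.34 in WT cells. It was above background on replicates 3 and 4 alone, in both genotypes; these are the arrays whose channels differ in sex-linked genes, and whether detection and these differences are related was not tested. KO and WT channels lay close together on every array, with mean log2 ratios of -0.03 ± 0.02 in differentiating (SD, n = 2; limma adjusted p = 0.934) and 0.09 ± 0.10 in proliferating cells (SD, n = 4; limma adjusted p = 0.604). The 95% intervals were -0.27 to 0.21 and -0.08 to 0.26.

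Another Nrxn3 probe (chr12:87812578-87812637, mm7) gave the reverse pattern of detection. It had log2 signals of 6.87 and 7.14 in KO and 6.99 and 7.10 in WT differentiating cells, all above background, and was above background in no proliferating channel. It was at least 1.56-fold higher in differentiating than in proliferating cells in KO and in WT cells alike. This probe passed the filter only through the differentiating arrays, so the bound is not independent of the filter. The brightest Nrxn3 probe maps elsewhere (chr12:86991510-86992778, mm7, a span longer than the probe), and no Nrxn3 probe was above background in all 12 channels.

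Nlgn1 was above background in all 12 channels and did not pass the test between genotypes. Its log2 signal was 8.65 and 8.68 in KO differentiating cells, against 9.23 and 8.82 in WT differentiating cells. In proliferating cells it was 8.04, 7.94, 7.90 and 8.03 in KO cells, against 7.83, 8.20, 8.25 and 8.75 in WT cells. The KO proliferating channels were close together and lay within the WT proliferating range. The mean log2 ratio was -0.36 ± 0.32 in differentiating (SD, n = 2; 95% interval -0.79 to 0.07, limma adjusted p = 0.374) and -0.28 ± 0.38 in proliferating cells (SD, n = 4; 95% interval -0.59 to 0.02, limma adjusted p = 0.344). The ratio was negative on 5 of 6 arrays, proliferating replicate 1 being the exception at 0.20.

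The sign of the Nlgn2 ratio followed the dye on 6 of 6 arrays. Its log2 signal was 11.84 and 11.51 in KO differentiating cells, against 11.42 and 11.99 in WT differentiating cells. In proliferating cells it was 10.76, 11.51, 10.98 and 11.81 in KO cells, against 11.26, 11.36, 11.64 and 11.14 in WT cells. The ratio of KO over WT was -0.48, -0.50 and -0.65 on the arrays with KO RNA in Cy5, and 0.42, 0.16 and 0.67 on those with KO RNA in Cy3. With the dyes balanced, the means were -0.03 ± 0.64 in differentiating (SD, n = 2; limma adjusted p = 0.951) and -0.08 ± 0.61 in proliferating cells (SD, n = 4; limma adjusted p = 0.769). With the dye as a term in the fit, the 95% intervals were -0.38 to 0.32 and -0.33 to 0.17.

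**Figure D4:**
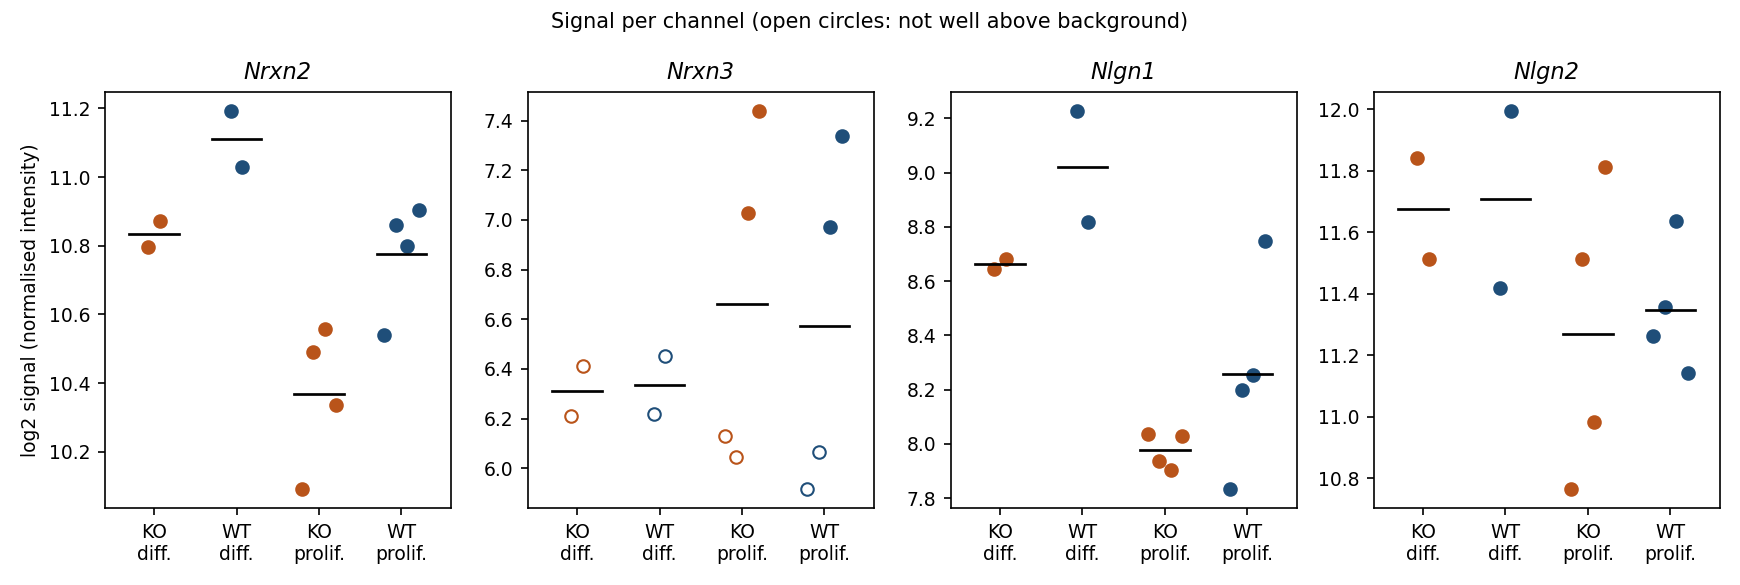
Log2 signal of Nrxn2, Nrxn3, Nlgn1 and Nlgn2 (vertical axes, a scale per gene) in KO differentiating, WT differentiating, KO proliferating and WT proliferating cells. Each point is a channel, open where the probe was not well above background, and lines are group means; Nrxn3 is above background in 4 of 12 channels, on proliferating replicates 3 and 4.

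Mitogen withdrawal was followed by comparing differentiating with proliferating cells within each genotype, on levels per channel. In KO cells 2 of the 7 genes passed, Cntnap2 as higher and Nxph1 as lower, where 15.2% of all genes tested passed, 9.14% as higher and 6.1% as lower. In WT cells 2 of the 7 passed, Cntnap2 and Cntn2, both higher, where 14.9% of all genes passed, 9.01% as higher. The median log2 change of the 7 genes was 0.41 in KO and 0.76 in WT cells, against 0.05 over all genes in each genotype. These comparisons use the same channels as the KO over WT ratios and are given beside them, not as separate evidence.

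Cntnap2 passed in both genotypes. It was 11.6-fold higher in differentiating than in proliferating KO cells (log2 3.53, 95% interval 2.60 to 4.46, limma adjusted p = 0.00173). In WT cells it was 26.3-fold higher (log2 4.71, 95% interval 3.79 to 5.64, limma adjusted p = 0.000514). Cntnap2 was above background on 2 of 4 KO and 1 of 4 WT proliferating arrays, so these folds start from signals near the floor. Without differentiating replicate 1 the log2 change was 2.67 in KO and 4.00 in WT cells, and without replicate 2 it was 4.40 and 5.43, all still passing (limma adjusted p = 0.00158 to 0.0374). The probe at chr6:47337737-47337796 was not above background in proliferating cells. It was at least 2.19-fold higher in differentiating KO and at least 3.61-fold higher in differentiating WT cells. It passed the filter only through the differentiating arrays, where it is high, so these bounds are not independent of the filter.

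Nxph1 passed in KO cells. There it was 2.83-fold lower in differentiating than in proliferating KO cells (log2 -1.50, 95% interval -2.28 to -0.72, limma adjusted p = 0.0217). In WT cells its log2 change was 0.99 (95% interval 0.21 to 1.77), with a limma adjusted p of 0.0856. At this probe the groups did not overlap in either genotype. At the probe at chr6:9205718-9205777 the WT groups did overlap, with log2 signals of 9.10 and 7.87 in differentiating and 8.11, 8.59, 9.56 and 8.22 in proliferating WT cells. The change in KO cells lost its call when proliferating replicate 1 or 2 or either differentiating replicate was left out (limma adjusted p = 0.111, 0.117, 0.159 and 0.150).

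Cntn2 was at least 1.70-fold higher in differentiating than in proliferating WT cells (fitted log2 1.07, limma adjusted p = 0.00269). Its probe passed the filter only through WT differentiating cells, so this p-value too is not independent of the filter. In KO cells neither condition was above background. The call in WT cells ended without differentiating replicate 1 (limma adjusted p = 0.0689).

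The remaining genes did not pass in either genotype. The log2 change of Nlgn1 was 0.69 in KO and 0.76 in WT cells (limma adjusted p = 0.0951 and 0.0725), and its differentiating channels lay above the proliferating ones in both genotypes. Nrxn2 changed by 0.47 in KO and 0.34 in WT cells (limma adjusted p = 0.0865 and 0.201). Nlgn2 changed by 0.41 and 0.36 (limma adjusted p = 0.226 and 0.293), and Nrxn3 by -0.35 and -0.24 at its brightest probe (limma adjusted p = 0.553 and 0.710). For Nrxn3 the sign turned when proliferating replicates 3 and 4 were left out, to 0.22 in KO and 0.35 in WT cells.

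**Figure D5:**
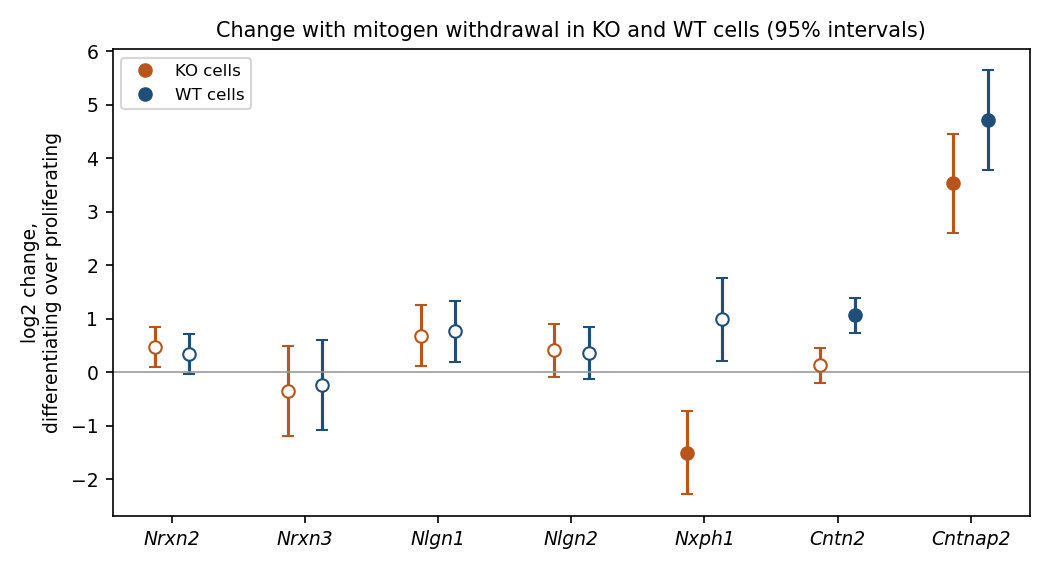
Log2 change in differentiating over proliferating cells (vertical axis) for the 7 genes, in KO and in WT cells, with 95% intervals from limma's separate-channel fit. Filled points passed a limma adjusted p under 0.05: Nxph1 and Cntnap2 in KO cells, Cntn2 and Cntnap2 in WT cells.

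The order of levels differed by gene. At the brightest probes WT differentiating cells had the highest mean for 6 of the 7 genes, all but Nrxn3. For Cntn2 this rank is not independent of the filter. The order also depends on the probe. At the Nxph1 probe at chr6:9205718-9205777 KO proliferating cells had the highest mean. At the Nrxn3 probe at chr12:87812578-87812637 WT differentiating cells did. For Nxph1 the mean fell in the order WT differentiating (10.69), KO proliferating (10.18), WT proliferating (9.70) and KO differentiating cells (8.68), where the middle pair overlapped. For Nrxn2, Nlgn1, Nlgn2 and Cntnap2 the order was WT differentiating, KO differentiating, WT proliferating, KO proliferating. Neighbours in that order overlapped for all of Nlgn2, for all but the first step of Nrxn2 and Nlgn1, and for all but the middle step of Cntnap2.

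Markers of cell types also differed between the groups, some lower and some higher in KO differentiating cells. Of 12 neuron markers tested, of 13 on the list, 5 passed as lower and 0 as higher in KO differentiating cells, where 0.914% of all genes passed as lower and 2.18% as higher; their median log2 ratio was -1.04. Their summed signal lay between 11994 and 13804 in KO differentiating cells, against 26717 to 28443 in WT differentiating cells. It was 9117 to 11391 in KO proliferating cells, against 9278 to 12143 in WT proliferating cells. There 0 of 12 were called by limma and 6 had an unadjusted p under 0.05, as did 2878 of the 18046 genes tested. Of the 13, 6 were above background in all 12 channels, among them Tubb3 and Rbfox3, and Gad2 was in none. In bulk RNA, fewer cells of a type and less RNA per cell cannot be told apart, and the part of cell composition in the values of Nxph1, Cntn2 and Cntnap2 was not tested.

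Oligodendrocyte and astrocyte markers had positive medians in KO differentiating cells. Of 7 oligodendrocyte markers, 4 passed as higher, where 2.18% of all genes did (median log2 ratio 3.06), with a summed signal of 103065 to 114266 in KO against 11642 to 18960 in WT cells. Of 7 astrocyte markers, 2 passed as higher (median 1.23; summed signal 63041 to 94086 in KO against 26618 to 33545 in WT cells). The medians were positive in proliferating cells too, at 1.32 for oligodendrocyte and 0.45 for astrocyte markers, with 0 called by limma on either list. There 6 oligodendrocyte and 4 astrocyte markers had an unadjusted p under 0.05, as did 2878 of the 18046 genes tested. Of 6 markers of oligodendrocyte precursors, 1 passed as higher in differentiating KO cells, where 3 had negative and 3 positive ratios (median 0.25). In proliferating KO cells 2 passed as higher (median 0.93), where 0.615% of all genes did. With mitogen withdrawal, neuron markers passed as higher for 3 of 12 in KO and 7 of 12 in WT cells, where 9.14% and 9.01% of all genes did. Oligodendrocyte markers passed as higher for 5 of 7 in KO and 0 of 7 in WT cells. Astrocyte markers did for 5 of 7 in KO and 3 of 7 in WT cells.

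Other genes of the pathway were counted from 4 lists. Beside each count of KO over WT stands the share of all genes tested that passed, 3.1% in differentiating and 0.97% in proliferating cells. Of 21 neurexin partners, 16 were tested. In differentiating cells 1 passed: Clstn3, a calsyntenin of the postsynaptic membrane, was lower in KO cells at a log2 ratio of -1.37 ± 0.11 (SD, n = 2; limma adjusted p = 0.0282). In proliferating cells 1 passed: Cbln1, a secreted protein that bridges neurexins to glutamate receptors of the delta type, was higher in KO cells at 1.03 ± 0.24 (SD, n = 4; limma adjusted p = 0.0409), with a mean of -0.74 in differentiating cells. The list's median log2 ratio was -0.10 in differentiating and 0.08 in proliferating cells.

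The contactin and Caspr family, with 14 of 22 tested, had 0 genes called in either condition with limma, and medians of 0.02 and 0.07. Over all genes tested 3.1% passed in differentiating and 0.97% in proliferating cells. At an unadjusted p under 0.05 the family had 5 in differentiating and 4 in proliferating cells. Over all 18046 genes tested there were 3163 and 2878. Of 17 synaptic scaffold genes tested, 1 passed in differentiating cells: Dlg3, which anchors glutamate receptors at the postsynaptic density, was lower in KO cells at -0.76 ± 0.24 (SD, n = 2; limma adjusted p = 0.0439). Among 27 other synaptic adhesion genes tested, the teneurin Tenm2 was lower at -1.67 ± 0.14 (SD, n = 2; limma adjusted p = 0.0196) and the related Tenm3 higher at 1.28 ± 0.17 (SD, n = 2; limma adjusted p = 0.0255) in KO differentiating cells. In proliferating cells the list had 1 call, Lrfn2, a postsynaptic adhesion molecule, at 0.55 ± 0.13 (SD, n = 4; limma adjusted p = 0.0429). No gene of the 4 lists passed limma's test of the difference between the conditions. At an unadjusted p under 0.05 there were 4, 4, 3 and 7 in the order of the lists above. Over all genes tested there were 2172 of 18046.

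With mitogen withdrawal, 2 of 16 neurexin partners passed as higher in WT cells, Cbln2 (log2 2.34) and Clstn3 (log2 2.05), and 1 passed as lower in KO cells, Adgrl2 (log2 -2.01, listed on the array as Lphn2). In the contactin list 1 of 14 passed as higher in KO cells, Nfasc (log2 2.76), an adhesion molecule of the nodal region, and 2 in WT cells, Cntn1 (log2 2.78) and Epb41l3 (log2 1.84). These genes were named after their values were seen. Of the 27 other adhesion genes, 7 passed as higher in KO and 7 in WT cells. The shares of all genes tested that passed as higher were 9.14% in KO and 9.01% in WT cells, and 6.1% passed as lower in KO cells.

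The genes whose log2 signal ran closest to each member over the 12 channels were listed by Pearson correlation, as a description of channels that share 6 arrays and their slides. For Nxph1 they were BB345768 (0.895), Rev3l (0.864) and Trp53bp1 (0.856). For Cntn2 they were Zfp566 (0.976), Pcdh15 (0.971) and AK032040 (0.959), and for Cntnap2 TC1489624 (0.991), Rarres1 (0.987) and 2900052N01Rik (0.985). For Nlgn1 they were Adam8 (0.966), Pcdhb2 (0.960) and Plxna3 (0.958), and for Nrxn2 Pcdhb2 (0.915), Obsl1 (0.914) and Pcdhb3 (0.878), so that the protocadherin Pcdhb2 stood on both lists. For Nrxn3 they were Olfr20 (0.983), TC1479950 (0.957) and Cfi (0.951), and for Nlgn2 Zfp316 (0.953) and Tmem242 (0.916). Among the 7 genes, Cntn2 and Cntnap2 correlated at 0.813 and Nlgn1 with Nrxn2 at 0.822, while Nxph1 correlated at 0.360 with Cntn2 and at -0.012 with Cntnap2.

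The 3 calls in differentiating cells rest on 2 arrays. Each was lost when either array was left out, where the lone array is assumed to vary like the proliferating ones: without differentiating replicate 1 the limma adjusted p was 0.318 for Nxph1, 0.293 for Cntn2 and 0.363 for Cntnap2, and without replicate 2 it was 0.226, 0.266 and 0.338. Without proliferating replicates 3 and 4, all 3 still passed, at limma adjusted p-values of 0.00504, 0.0210 and 0.0189. For Cntn2 this leaves the filter's dependence on WT differentiating cells unchanged.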

How the data were processed

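The deposited files hold, per the file headers, spot intensity values from Agilent Feature Extraction 9.5.1.1: a mean signal and a median local background for each dye. Its processed intensity values are background-subtracted and dye-normalized, per the file headers. The authors' deposited value table holds log10 ratios that match the scanner's log10 ratio turned to KO over WT (differences up to 4.996e-06, column medians 0); whether the authors centred them further is not stated.

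Mean signals were corrected in limma 3.58.1 (R 4.3.3, statmod 1.5.0, and version 1.17.8 of data.table) by normexp with an offset of 50, followed by loess within arrays. Of 43379 gene and 1639 control spots per array, controls and 859 outlier-marked gene spots over all arrays were left out. Of 41174 probes, 22951 were named by accession through RefSeq genes and 18223 by the file. The brightest probe stood for each of the 8526 genes with several probes. A limma model (lmFit, eBayes) of the log2 ratios on all 6 arrays held a term for each condition and one for the dye, with 3 residual and 2.58 prior degrees of freedom. Levels per channel are log2 signals after Aquantile normalization, and differentiating over proliferating changes come from limma's separate-channel fit (intraspot correlation 0.764, 18037 genes). P-values are 2-sided and Benjamini-Hochberg adjusted over all genes tested. The number of arrays limits the precision. Bounds are not confidence limits.

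The text names the 7 genes whether called or not, Dnmt3a, called genes of 4 partner lists (up to 6 per list and comparison), and 3 correlated genes per member; an unnamed probe for Nlgn2 is left out. Members, lists and alternatives were chosen with earlier results of these data known. Alternatives varied the background correction, normalization, filter, probe choice, dye term, weights, samples and replicate block. Whether replicate numbers pair samples across conditions is not known. Deviations of same-numbered arrays correlated at -0.369 and -0.288 over 2 pairs. These values cannot decide it, because same-numbered arrays held the KO RNA in opposite dyes and the deviations were not corrected for dye. The scaffold list is not reported here for differentiating over proliferating.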

Additional observations from a re-analysis of the deposited data

Results flagged for a closer look

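The log2 signal of Nxph1 in KO proliferating cells was 9.55 on replicate 4, apart from 10.35, 10.44 and 10.38 on the other 3 arrays. The WT channel of the same array was also the lowest of its group, at 9.09. This was 1 of 21 groups of 4 values examined, and chance alone sets apart about 1 in 20 such groups.

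For Nxph1 every differentiating array had a negative ratio of KO over WT and every proliferating array a positive one. The difference between the conditions was -2.49 on the log2 scale and did not pass the test (limma adjusted p = 0.0675).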

How the results depend on the processing

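Over all genes, the number called in differentiating cells (559) became 285 with median centring, 2418 with array weights, 1589 with each condition fitted alone, 975 without proliferating replicates 3 and 4, and 0 to 539 with 1 replicate left out (0 without either differentiating array, where 1296 and 1858 had an unadjusted p under 0.05). For proliferating cells (175) it became 278 with the processed signals, 271 with the authors' value table, 101 with no filter, 0 with the condition fitted alone (2271 at an unadjusted p under 0.05), and 0 to 177 with 1 left out. For the difference (9) it became 72 with the processed signals, 0 with median centring (1582 unadjusted), 81 with the value table, 0 with no filter (2865 unadjusted), 5 with the mean over probes, 24 with no dye term, 219 with array weights, 0 without proliferating replicates 3 and 4 (2124 unadjusted), and 0 with any replicate left out (921 to 2588 unadjusted). Differentiating over proliferating gave 1201 in KO (2750) and 983 in WT cells (2685) without proliferating replicates 3 and 4, and 212 to 4723 and 200 to 3817 with 1 left out. The cause was not tested.

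Among the 7 genes, calls in differentiating cells (3) ranged from 0 to 3 with 1 left out; for the difference (0) there were 2 with the processed signals, 2 with the value table, 1 with no dye term and 3 with array weights. In KO cells differentiating over proliferating gave 1 to 2 with 1 left out, and in WT cells 1 to 3. Where these counts include Cntn2, they are not independent of the filter. Of the called ratios, none changed sign.

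A replicate block assumes a pairing by replicate number that is not known to hold. With it, 324, 33 and 14 genes passed in differentiating cells, in proliferating cells and for the difference. For differentiating over proliferating, 6336 passed in KO and 5854 in WT cells. Of the 7 genes, 1 (Nxph1), 0 and 1 passed, and 3 and 4.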
